A study of Mus musculus with 8 samples.

Results

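A group of 33 inflammatory genes was followed in mouse hearts after digoxin: cytokines of the interleukin 1 system and other cytokines, chemokines, adhesion molecules of the vessel wall, and effector genes induced by the transcription factor NF-kB. The genes were taken from a list of names, and each was measured by probe sets annotated to exactly 1 gene symbol, averaged per gene. All 33 listed genes were measured, of 22180 genes in all. Hearts of male C57BL6JRj mice (C57BL6/J in the growth protocol), 8 to 10 weeks old, were compared after an intraperitoneal injection of digoxin at 1 mg/kg (5 arrays) or of vehicle (3 arrays). Injections were given at ZT5, counted in hours from lights-on, and hearts were taken at ZT9. The vehicle was a mixture of ethanol, propylene glycol, citric acid and sodium phosphate. All mice are labelled wild type, with no disease model or inflammatory stimulus named, and total RNA came from pulverized heart. Digoxin is a cardiac glycoside and blocks the sodium pump, Na/K-ATPase. Of the 4 vehicle samples in the design text, 1 was not analysed here.

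Interleukin 1 beta and tumour necrosis factor bind receptors on endothelial cells, fibroblasts and macrophages and activate NF-kB, which enters the nucleus and induces chemokines, adhesion molecules and its own inhibitors. Chemokines bound to the vessel wall attract leukocytes, selectins let these roll, and ICAM-1 and VCAM-1 let them adhere through integrins. In a resting heart these genes are expressed mostly by resident macrophages, endothelial cells and fibroblasts, and they are strongly induced by infarction or infection.

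The values are on a log2 scale and centred per probe set. They show differences between arrays and no absolute level, and whether a gene was above background cannot be read from them. For the same reason the labelled tissue could not be checked by the level of heart genes. Vehicle replicate 3 stood apart, with an interquartile range of 0.216 over all probe sets against 0.0792 to 0.115 on the other 7 arrays. Digoxin replicate 4 stood apart in a list of T and NK cell genes, whose mean over 9 markers was 1.26 there and between -0.05 and 0.12 on the other arrays. The markers did not vary alike. Over the digoxin arrays the SD was 0.95 to 1.42 in the T cell genes Cd8a, Cd4, Cd3e and Cd3g, and 0.31 in Cd3d. In Ncr1, Nkg7, Gzma and Klrb1c, genes found in NK cells, it was 0.04 to 0.12. The array numbers in the labels run from 10 to 12 for vehicle and from 13 to 17 for digoxin, so the order of the arrays cannot be told apart from the treatment. No label says that each sample is a separate animal, and the p-values then measure the spread among these samples alone, which may be technical.

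Against vehicle, 3 of the 33 genes fell and none rose in limma at an adjusted p under 0.05. They were Csf1, the gene of the macrophage colony-stimulating factor, Cxcl16, which encodes a transmembrane chemokine, and Il1b, the gene of interleukin 1 beta. Over all genes tested, 0.415% were called lower and 0.947% higher, 1.36% in all. The 3 genes make up 9.09% of the list. The median log2 change was -0.11 over the 33 genes and -0.01 over all genes, and 25 of the 33 had a lower mean in digoxin hearts, against 55.6% of all genes. In 7 of the 33 every digoxin array lay below every vehicle array, and in 1, Il1r1, every digoxin array lay above. The same was seen in 3.76% of all genes for lower values and in 4.4% for higher values, 8.16% in all. At an unadjusted p under 0.05, 12 members were lower and 1 was higher, against 5.99% and 6.32% of all genes. The mean over the 33 genes lay between -0.06 and 0.04 on the digoxin arrays and between 0.10 and 0.13 on the vehicle arrays.

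**Figure D1:**
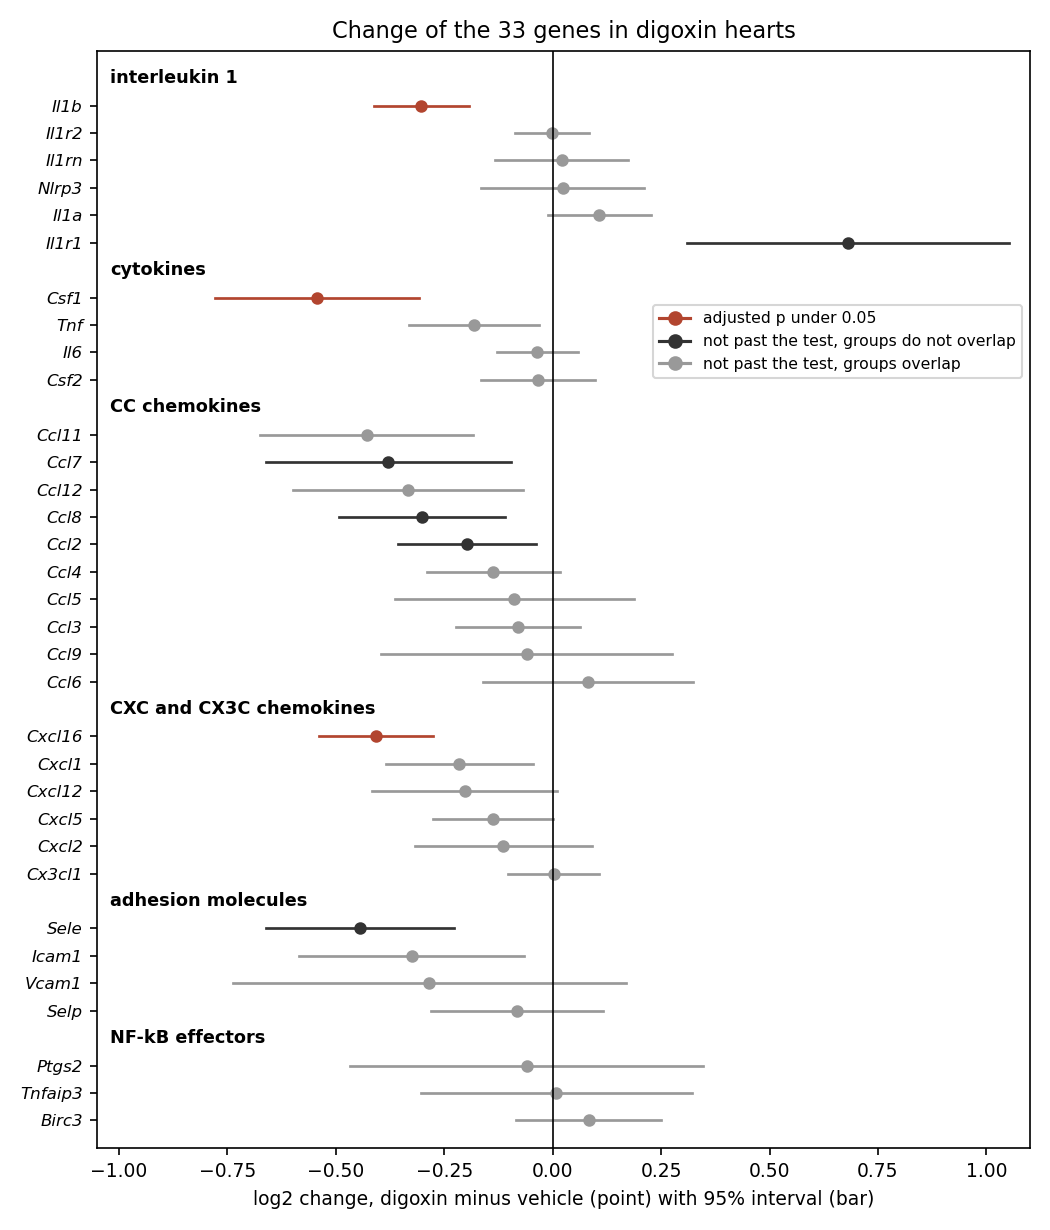
Log2 change in digoxin hearts (5 arrays) minus vehicle hearts (3 arrays) for each of the 33 genes, grouped by role; points are the limma estimates and bars their 95% intervals. The intervals of Il1b, Csf1 and Cxcl16, the 3 genes past the test, lie below 0, most other points lie left of 0, and Il1r1 at 0.68 lies farthest to the right.

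The calls rested on few arrays. Without vehicle replicate 3 the same 3 genes passed and none rose, against 0.852% of all genes lower and 0.834% higher. With digoxin replicate 4 left out as well, these 3 passed and Il1r1 was called higher, beside 282 of all genes lower and 218 higher. Without vehicle replicate 2 none of the 33 passed (adjusted p of 0.0534 for Cxcl16, 0.0806 for Il1b and 0.137 for Csf1 in limma), beside 29 of all genes lower. Without digoxin replicate 2 or 5 Cxcl16 was the 1 member called, beside 37 and 43 of all genes lower.

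Promoters of 25 of the 33 genes were found in the RefSeq table (assembly GRCm38.p6), each reaching from 250 bases before the start of transcription to 50 bases after it. Cxcl16 has no entry in the table. The promoters of Il1b and Csf1 are shown because these genes fell, and those of Cxcl1 and Cxcl2, nearby genes of neutrophil chemokines, because they carry kappaB matches and did not pass the test. The promoter of Il1b lies at chr2:129371090-129371389 and that of Csf1 at chr3:107760420-107760719, both on the minus strand. That of Cxcl1 lies at chr5:90890995-90891294 and that of Cxcl2 at chr5:90903649-90903948, both on the plus strand. Each is written 5′ to 3′ on the strand of its gene. Capitals mark the TATA box TATAAA in Il1b and, in the other promoters, matches to the kappaB consensus or to a T-rich kappaB form on either strand. Neither form contains the other.
Il1b: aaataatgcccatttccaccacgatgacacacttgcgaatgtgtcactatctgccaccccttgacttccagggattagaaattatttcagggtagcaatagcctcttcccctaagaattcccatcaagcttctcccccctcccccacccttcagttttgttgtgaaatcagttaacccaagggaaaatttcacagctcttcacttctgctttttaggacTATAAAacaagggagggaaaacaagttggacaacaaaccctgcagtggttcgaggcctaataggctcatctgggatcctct
Csf1: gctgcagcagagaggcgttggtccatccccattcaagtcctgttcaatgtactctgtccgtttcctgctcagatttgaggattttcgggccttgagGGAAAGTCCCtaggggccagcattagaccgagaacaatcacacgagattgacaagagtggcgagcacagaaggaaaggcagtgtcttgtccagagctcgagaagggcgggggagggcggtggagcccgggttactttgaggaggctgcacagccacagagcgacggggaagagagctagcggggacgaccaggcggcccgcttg
Cxcl1: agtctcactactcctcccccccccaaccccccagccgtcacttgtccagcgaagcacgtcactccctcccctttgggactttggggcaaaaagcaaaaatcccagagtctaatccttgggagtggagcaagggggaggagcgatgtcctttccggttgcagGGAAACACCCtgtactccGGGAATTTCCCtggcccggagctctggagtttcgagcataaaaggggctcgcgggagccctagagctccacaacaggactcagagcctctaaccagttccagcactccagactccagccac
Cxcl2: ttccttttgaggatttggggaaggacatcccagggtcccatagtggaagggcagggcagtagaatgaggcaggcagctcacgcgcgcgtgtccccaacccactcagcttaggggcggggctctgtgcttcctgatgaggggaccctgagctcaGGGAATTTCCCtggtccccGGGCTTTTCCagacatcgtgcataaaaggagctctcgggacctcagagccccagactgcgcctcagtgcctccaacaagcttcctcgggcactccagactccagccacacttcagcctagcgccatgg

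Positions are counted from the start of transcription. The TATAAA match of Il1b spans -31 to -26, and the kappaB match of Csf1, on the opposite strand, spans -154 to -145. Cxcl1 and Cxcl2 each hold a pair of stretches in capitals. In both genes one stretch, from -71 to -61 in Cxcl1 and from -97 to -87 in Cxcl2, holds overlapping consensus matches on the opposite strands. Both strands were searched, and the 2 kappaB forms can overlap. The kappaB consensus was present in 8 of the 25 genes with a promoter, namely Il1r1, Nlrp3, Il6, Csf1, Ccl9, Cxcl1, Cxcl2 and Tnfaip3, and in 9.55% of all 27025 genes of the table. Their log2 changes ran from -0.54 in Csf1 to 0.68 in Il1r1, with a median of -0.05, against -0.08 for the other genes with a promoter. The T-rich form was found in 7 of the 25, against 1.90% of all genes. The AP-1 motif TGANTCA was present in 7, against 8.97% of all genes, and TATAAA in 11, against 15.7%. The palindromic glucocorticoid response element, the negative glucocorticoid response element and the REV-ERB/ROR element were each matched in 0 of the 25 and in 0.537%, 0.862% and 0.829% of all genes. The half-site AGAACA, which overlaps the full element, was matched in 3, namely Il1r1, Csf1 and Tnfaip3, against 21.3% of all genes.

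Of the interleukin 1 system, Il1b was the gene that fell. Its agonists are Il1a and Il1b, its antagonist is Il1rn, its signalling receptor is Il1r1, its decoy receptor is Il1r2, and Nlrp3 encodes the inflammasome sensor that leads to the processing of interleukin 1 beta. The other 5 of these 6 genes did not pass, and their median change, Il1b included, was 0.02. The centred log2 values of Il1b on digoxin replicates 1 to 5 were -0.20, -0.31, -0.19, -0.29 and -0.27, and on vehicle replicates 1 to 3 they were 0.03, 0.12 and 0. All 5 digoxin arrays lay below all 3 vehicle arrays, and the spread within each group was small. Digoxin hearts had a mean of -0.25 ± 0.05 (SD, n = 5) and vehicle hearts one of 0.05 ± 0.06 (SD, n = 3). The log2 change was -0.30 (SE 0.05, adjusted p = 0.0211 in limma), so that the vehicle level was 1.23 times the digoxin level. The call of Il1b held in 4 of 8 fits with an array omitted and ended on omitting digoxin 2, digoxin 5, vehicle 1 or vehicle 2 (adjusted p up to 0.0806 in limma).

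Il1a, the other agonist gene, read 0.11, -0.0005, 0.08, -0.03 and 0.12 on the digoxin arrays and -0.04, 0 and -0.11 on the vehicle arrays. Its groups overlapped and its log2 change was 0.11 (95% interval -0.01 to 0.23, adjusted p = 0.451 in limma). The change of Il1b lay 0.41 below that of Il1a (difference -0.41, SE 0.03), and it was -0.32 (SE 0.08) relative to the antagonist Il1rn, which stood at 0.02 (95% interval -0.13 to 0.17). An exact two-sided permutation test of each difference over the 56 assignments of the arrays gave p = 0.0179, which is the smallest possible with 8 arrays, and 0.0357 when adjusted over the 8 pairs of genes compared. The ratio of Il1b to Il1a and that of Il1b to Il1rn were lower on all 5 digoxin arrays than on all 3 vehicle arrays. Il1b separated the groups by itself, so these permutation p values in part restate that.

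Il1r1 had the largest change of the 33 genes and did not pass the test. It read 0.52, 0.62, 0.73, 0.81 and 0.52 on the digoxin arrays and 0.13, 0.27 and -0.52 on the vehicle arrays. Every digoxin array lay above every vehicle array, and vehicle replicate 3 lay far below the other vehicle arrays. The log2 change was 0.68 (95% interval 0.31 to 1.05, adjusted p = 0.108 in limma), or 1.60 times the vehicle level. It was 0.44 without vehicle replicate 3 (adjusted p = 0.0589), and 0.40 without that array and digoxin replicate 4 (adjusted p = 0.0475), a setting in which it passed. The decoy receptor gene Il1r2 stood at -0.0009, with an interval from -0.09 to 0.08. The difference between the changes of Il1r1 and Il1r2 was 0.68 (SE 0.20, exact permutation p = 0.0179, and 0.0357 adjusted over 8 pairs). Il1r2 varied too little to close the gap between the groups of Il1r1. The permutation p therefore restates that these groups did not overlap, and it is no support for a gene that did not pass in limma. The residual SD of Il1r2 was 0.0252, lower than in all but 3.10% of genes. Nlrp3 read 0.20, 0.07, -0.17, -0.09 and 0.04 on the digoxin arrays and -0.02, -0.08 and 0.06 on the vehicle arrays. The digoxin values lay on both sides of the vehicle values, and the log2 change was 0.02 (95% interval -0.16 to 0.21).

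**Figure D2:**
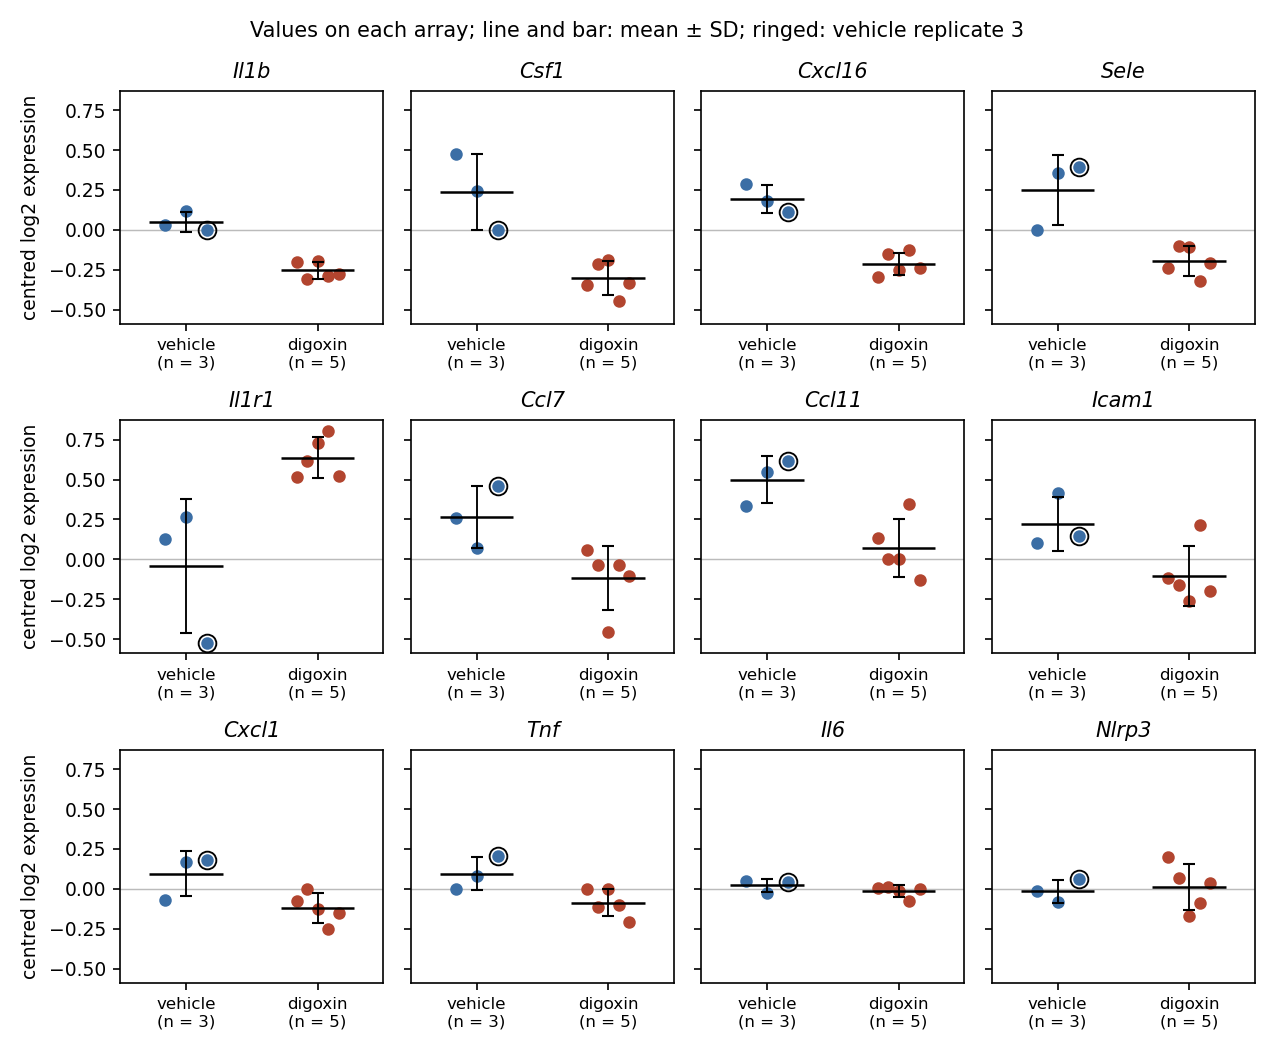
Centred log2 expression (vertical axis) of 12 of the 33 genes on each array, vehicle (n = 3) beside digoxin (n = 5); horizontal lines are means, bars are ± 1 SD, and vehicle replicate 3 is ringed. In Il1b, Csf1, Cxcl16, Sele and Ccl7 all digoxin points lie below all vehicle points, in Il1r1 all lie above, and the points of Tnf, Il6 and Nlrp3 overlap.

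Among the other cytokines, Csf1 fell and 3 genes did not pass. Csf1 sustains macrophages through its receptor CSF1R. It read -0.34, -0.21, -0.19, -0.44 and -0.33 on the digoxin arrays and 0.47, 0.24 and 0 on the vehicle arrays. The groups did not overlap, and vehicle replicate 3 was the vehicle array closest to the digoxin arrays. The means were -0.30 ± 0.11 (SD, n = 5) and 0.24 ± 0.24 (SD, n = 3), with a log2 change of -0.54 (SE 0.10, adjusted p = 0.0471 in limma) and a vehicle level of 1.46 times the digoxin level. The adjusted p of Csf1 was 0.0113 without vehicle replicate 3 and between 0.0821 and 0.137 on omitting any of the other 7 arrays. Csf2, the gene of the granulocyte-macrophage colony-stimulating factor, had a log2 change of -0.03 (95% interval -0.17 to 0.10) over 2 probe sets. It read 0.0027, 0.02, 0.07, -0.05 and 0.03 on the digoxin arrays and -0.03, -0.01 and 0.18 on the vehicle arrays, and the groups overlapped. The difference between Csf1 and Csf2 was -0.51 (SE 0.15, exact permutation p = 0.0179, and 0.0357 adjusted over 8 pairs). Csf1 separated the groups by itself, so this p in part restates that. The groups of the difference lay close, with the highest digoxin array at -0.23 and vehicle replicate 3 at -0.18.

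Tnf, the gene of tumour necrosis factor, read -0.0034, -0.11, 0, -0.10 and -0.21 on the digoxin arrays and -0.0021, 0.08 and 0.21 on the vehicle arrays. The groups overlapped, and the log2 change was -0.18 (95% interval -0.33 to -0.03, adjusted p = 0.302 in limma). For Il6, a cytokine gene that NF-kB induces, the values were 0.01, 0.01, -0.01, -0.08 and 0 after digoxin and 0.05, -0.03 and 0.05 after vehicle. No array departed from 0 by more than 0.08, and the log2 change was -0.04 (95% interval -0.13 to 0.06). The residual SD of Il6 was 0.0383, lower than in all but 8.26% of genes.

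Of the 10 CC chemokine genes, none passed, 9 had lower means in digoxin hearts, against 55.6% of all genes, and the median log2 change was -0.17. They fall into clusters of neighbouring genes on chromosome 11, and the clusters differed in their values. In the cluster at chr11:82035577-82116799 (GRCm38), which holds Ccl2, Ccl7, Ccl11, Ccl12 and Ccl8, all 5 genes were lower, from -0.43 to -0.20 with a median of -0.33. In 3 of the 5 the groups did not overlap, against 3.76% of all genes for lower values. In the cluster at chr11:83525778-83664683, which holds Ccl5, Ccl9, Ccl6, Ccl3 and Ccl4, the values ran from -0.14 to 0.08 with a median of -0.08, and in none did the groups separate. The difference between the clusters was noticed in these values and was not tested.

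Ccl11 encodes eotaxin, which attracts eosinophils through CCR3. It read 0.13, 0.003, 0, 0.35 and -0.13 on the digoxin arrays and 0.33, 0.55 and 0.62 on the vehicle arrays. Digoxin replicate 4, the highest of its group, lay just above vehicle replicate 1, the lowest of the other. The log2 change was -0.43 (95% interval -0.68 to -0.18, adjusted p = 0.125 in limma), and without digoxin replicate 4 it was -0.50 and passed (adjusted p = 0.0453). Ccl7, a monocyte chemoattractant gene, read 0.06, -0.03, -0.46, -0.04 and -0.10 on the digoxin arrays and 0.26, 0.07 and 0.46 on the vehicle arrays. Its groups did not overlap, with digoxin replicate 1 and vehicle replicate 2 only just apart, and the log2 change was -0.38 (95% interval -0.66 to -0.10, adjusted p = 0.25). Ccl8 stood at -0.30 and Ccl2, the gene of the main monocyte chemoattractant MCP-1, at -0.20, both without overlap between the groups and with adjusted p values of 0.168 and 0.29. Ccl12, a further ligand of the monocyte receptor CCR2, stood at -0.33 with overlapping groups (adjusted p = 0.281). It was at -0.48 without vehicle replicate 3 (adjusted p = 0.0515) and at -0.17 without vehicle replicate 1. The changes of Ccl2 and Ccl7 differed by 0.18 (SE 0.13, exact permutation p = 0.25). In the other cluster, Ccl4 stood at -0.14, Ccl5 at -0.09, Ccl3 at -0.08, Ccl9 at -0.06 and Ccl6 at 0.08, with adjusted p values of 0.463 to 0.907.

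Cxcl16 was the member with the smallest p. Its product is a transmembrane chemokine that also acts as a scavenger receptor, and its receptor is CXCR6. It read -0.29, -0.15, -0.25, -0.13 and -0.24 on the digoxin arrays and 0.29, 0.18 and 0.11 on the vehicle arrays. All digoxin arrays were below 0 and all vehicle arrays above it. The means were -0.21 ± 0.07 (SD, n = 5) and 0.19 ± 0.09 (SD, n = 3), with a log2 change of -0.41 (SE 0.06, adjusted p = 0.0122 in limma). The vehicle level was 1.33 times the digoxin level. Cxcl16 passed on omitting any of 7 arrays, and without vehicle replicate 2 its adjusted p was 0.0534.

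The other 5 CXC and CX3C chemokine genes did not pass. Cxcl1, a neutrophil chemoattractant gene, read -0.07, -0.0033, -0.12, -0.25 and -0.15 on the digoxin arrays and -0.07, 0.17 and 0.18 on the vehicle arrays. Its groups overlapped through vehicle replicate 1, and the log2 change was -0.22 (95% interval -0.39 to -0.05, adjusted p = 0.279). Cxcl12, the ligand of CXCR4 that retains progenitor cells and lymphocytes in tissue, stood at -0.20 (adjusted p = 0.435), at -0.30 without vehicle replicate 3 and at -0.10 without vehicle replicate 2. Its change and that of Cxcl1 differed by -0.01 (SE 0.15, exact permutation p = 0.875). The neutrophil chemoattractant genes Cxcl5 and Cxcl2 stood at -0.14 and -0.11, and Cxcl2 was at -0.01 without vehicle replicate 3 and at -0.18 without vehicle replicate 2. Cx3cl1, the gene of the transmembrane chemokine fractalkine, stood at 0.0021 (95% interval -0.10 to 0.11).

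All 4 adhesion molecule genes had lower means in digoxin hearts, against 55.6% of all genes, with a median log2 change of -0.30, and none passed. Sele, the gene of E-selectin, is transcribed by activated endothelium. It read -0.24, -0.10, -0.10, -0.32 and -0.21 on the digoxin arrays and 0, 0.36 and 0.39 on the vehicle arrays. The groups did not overlap, and vehicle replicate 1 lay closer to the digoxin arrays than the other vehicle arrays did. The log2 change was -0.44 (95% interval -0.66 to -0.23, adjusted p = 0.0706 in limma). Without vehicle replicate 1 it was -0.57 and passed (adjusted p = 0.0132). It was also called with quantile normalization (adjusted p = 0.0489) and with array weights (0.0349), as was Ccl11 (0.0449 and 0.0436).

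Icam1 encodes the ligand of the leukocyte integrins LFA-1 and Mac-1. It read -0.12, -0.16, -0.26, 0.22 and -0.20 on the digoxin arrays and 0.10, 0.42 and 0.15 on the vehicle arrays. Digoxin replicate 4 lay among the vehicle arrays and the other 4 digoxin arrays below them. The log2 change was -0.33 (95% interval -0.58 to -0.07, adjusted p = 0.284), and without digoxin replicate 4 it was -0.41 (adjusted p = 0.0774). Vcam1, whose product binds the integrin VLA-4, had a log2 change of -0.28 and the widest spread of the 33 genes (residual SD 0.325, higher than in 98.9% of genes). Its digoxin values ran from -0.13 to 0.69 and its vehicle values from 0.15 to 0.70. The changes of Icam1 and Vcam1 differed by -0.04 (SE 0.16, exact permutation p = 0.875). Selp, the gene of P-selectin, stood at -0.08 (95% interval -0.28 to 0.12), and its change differed from that of Sele by -0.36 (SE 0.19, exact permutation p = 0.125, and 0.2 adjusted over 8 pairs).

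The mean over 12 endothelial marker genes lay between -0.09 and 0.05 in digoxin hearts and between -0.10 and 0.11 in vehicle hearts, with all 12 of the listed markers measured. Of these Eng, which encodes the TGF-beta co-receptor endoglin, fell (log2 change -0.47, adjusted p = 0.0477 in limma) and the other 11 did not pass. The markers moved both ways, 8 with lower means and 4 with higher, with a median log2 change of -0.14. Without vehicle replicate 3 the median was -0.16 and 9 had lower means. The mean over the markers was 0.10 and 0.11 on vehicle replicates 1 and 2, above all digoxin arrays, and -0.10 on vehicle replicate 3. Without overlap between groups, Eng and Egfl7 (-0.16) were lower and Flt1 (0.32) and Cdh5 (0.23) higher, 2 of the 12 each way. Over all genes the shares were 3.76% and 4.4%. The call of Eng held without digoxin replicate 4 or vehicle replicate 3 and ended without any other single array (highest adjusted p 0.157, without vehicle replicate 2). Their part in the values of the adhesion genes was not tested. In bulk tissue, fewer cells of a type and less RNA per cell cannot be told apart.

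The 3 effector genes of NF-kB did not pass and lay near 0. Ptgs2, the gene of cyclooxygenase 2, stood at -0.06 (95% interval -0.47 to 0.35), and digoxin replicate 1 at 0.66 lay far from the other digoxin arrays, which ran from -0.16 to 0. Tnfaip3 encodes A20, an enzyme that edits ubiquitin chains and ends NF-kB signalling. It stood at 0.01 (95% interval -0.30 to 0.32), with digoxin replicate 4 at 0.47 and the other digoxin arrays between -0.19 and 0.02. Without digoxin replicate 4 its log2 change was -0.11. Birc3, the gene of the ubiquitin ligase cIAP2, read 0.12, 0.17, -0.02, 0.28 and 0 on the digoxin arrays and -0.03, 0.05 and 0.07 on the vehicle arrays, which overlap. Its log2 change was 0.08 (95% interval -0.08 to 0.25).

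**Figure D3:**
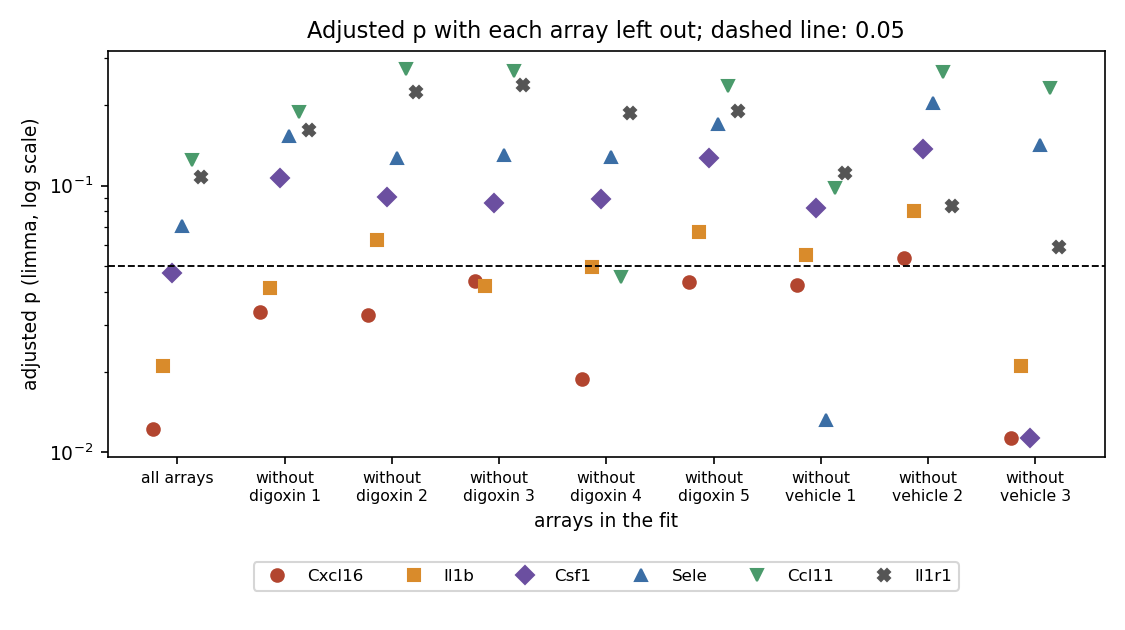
Adjusted p from limma (vertical axis, log scale) of 6 genes with all 8 arrays and with each array left out in turn (horizontal axis); the dashed line is 0.05. Cxcl16 lies below the line in all fits but that without vehicle replicate 2, Csf1 lies above it in 7 of the 8 fits with an array left out, and Il1r1 lies above it throughout.

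The spread between arrays differed widely among the members. Of the 33 genes, 12 had a residual SD below the median of all genes, among them Il1r2, Il6, Cx3cl1 and Il1b, and 21 lay above it, with Vcam1, Ptgs2, Il1r1 and Ccl9 as the most variable. On digoxin replicate 4, the array with the high mean over T and NK cell markers, 10 of the 33 genes had their highest digoxin value. They were Ccl6 (0.46), Ccl9 (0.46), Ccl5 (0.26), Tnfaip3 (0.47), Icam1 (0.22), Vcam1 (0.69), Birc3 (0.28), Il1r1 (0.81), Ccl11 (0.35) and Cxcl16 (-0.13). On the same array 12 other members had their lowest digoxin value. Whether the signal in these marker genes had a part in these values was not tested. Leaving out vehicle replicate 3 moved the median of the 33 genes from -0.11 to -0.13 and left 22 of them with lower means.

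**Figure D4:**
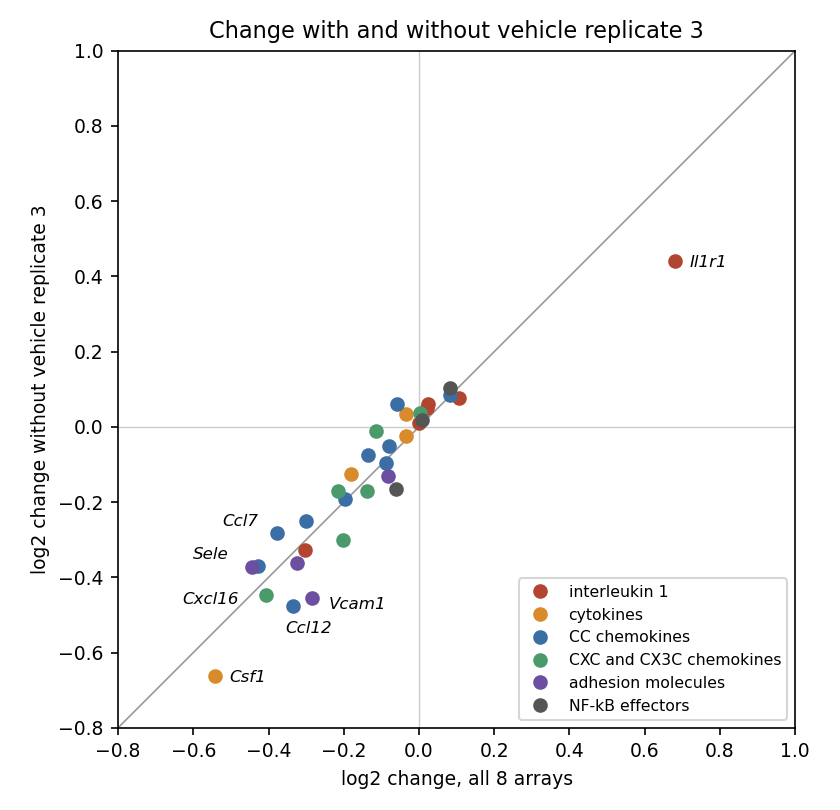
Log2 change of each of the 33 genes with all 8 arrays (horizontal axis) against that without vehicle replicate 3 (vertical axis); the diagonal marks equal values and colours mark the roles. Il1r1 drops from 0.68 to 0.44, Csf1 moves from -0.54 to -0.66, and Vcam1 and Ccl12 also lie below the diagonal.

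Genes around these members were read from lists of pathway partners, in the same fit. Beside the counts called below, 0.415% of all genes were called lower and 0.947% higher. Among 12 measured NF-kB subunits, IkB proteins and IkB kinases, 1 rose and none fell. It was Nfkbia, which encodes the inhibitor IkB alpha, with a log2 change of 1.04 (SE 0.09, adjusted p = 0.00105 in limma). Among 23 measured genes of receptor signalling to NF-kB, Irak2, a kinase of the interleukin 1 and Toll-like receptor pathway, rose by 0.30 (SE 0.06, adjusted p = 0.0462), and none fell. With 1 array left out, Irak2 passed without digoxin replicate 3 and in none of the other 7 fits (highest adjusted p 0.127, without digoxin replicate 5). Irak3, which restrains the same pathway, stood at 0.43 (adjusted p = 0.0765) and the adaptor gene Myd88 at -0.33 (adjusted p = 0.0585). Without vehicle replicate 3 Myd88 passed (adjusted p = 0.0118).

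Of 10 inflammasome genes, Txnip rose by 0.85 (SE 0.11, adjusted p = 0.00748). Its product binds thioredoxin and NLRP3. Casp1, the gene of the protease that processes interleukin 1 beta, stood at -0.01 (95% interval -0.19 to 0.17), and at -0.12 without vehicle replicate 3. Pycard, the inflammasome adaptor gene, stood at -0.0027. Of 8 measured relatives in the interleukin 1 and interleukin 18 families none passed, and the smallest p was that of Il1f10 (-0.24, adjusted p = 0.21; -0.15 without vehicle replicate 3).

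Among 22 measured chemokine receptor genes, 1 fell and none rose. This was Cx3cr1, the fractalkine receptor gene of monocytes and resident macrophages, with a log2 change of -0.26 (SE 0.05, adjusted p = 0.0477). The call held without digoxin replicate 1 or vehicle replicate 3 and ended without any other single array (highest adjusted p 0.15, without vehicle replicate 2). Its ligand gene Cx3cl1 was at 0.0021, as above. Ccr2, the receptor gene for Ccl2, Ccl7 and Ccl12, stood at -0.24 without overlap between groups (adjusted p = 0.119). Cxcr6, the receptor gene for Cxcl16, stood at 0.06 (95% interval -0.12 to 0.24), Ccr3 at -0.01 and Cxcr2, the receptor gene for Cxcl1, Cxcl2 and Cxcl5, at -0.05 (-0.14 without vehicle replicate 3). None of 19 other measured chemokine genes passed, and the smallest p was that of Cxcl10 (-0.20, adjusted p = 0.148).

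Csf1r, the receptor gene for Csf1, stood at -0.03 (95% interval -0.38 to 0.33), and at -0.23 without vehicle replicate 3 (adjusted p = 0.458). Il34, the gene of the other CSF1R ligand, stood at 0.24 (95% interval 0.04 to 0.44, adjusted p = 0.316). None of the 13 genes of the colony-stimulating factor and interleukin 6 systems passed, and Il6st, the gene of the shared receptor gp130, had the smallest p (-0.22, adjusted p = 0.138). It passed without vehicle replicate 3 (adjusted p = 0.0296). Of 19 measured leukocyte integrins and further adhesion genes, Esam, an endothelial junction gene, rose by 0.46 (SE 0.09, adjusted p = 0.0486). With 1 array left out, Esam passed without vehicle replicate 2 and in no other fit (highest adjusted p 0.127, without digoxin replicate 5). The integrin subunit genes Itgal (0.13), Itgb2 (-0.05) and Itga4 (0.06), partners of ICAM-1 and VCAM-1, did not pass. None of 14 measured genes of prostaglandin synthesis and reception passed, and the smallest p was that of the prostaglandin D synthase gene Ptgds (0.57, adjusted p = 0.0572). Most of the 14 went the other way: 11 had lower means, against 55.6% of all genes, with a median log2 change of -0.11 (-0.08 without vehicle replicate 3). At an unadjusted p under 0.05 in limma, 5 were lower and 1 higher, against 5.99% and 6.32% of all genes.

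Markers of leukocytes were read beside these results. The mean over 14 of 14 macrophage markers lay between 0.01 and 0.24 in digoxin hearts and between -0.14 and 0.17 in vehicle hearts. Of these markers 8 had lower means and 6 higher, with a median log2 change of -0.03 (-0.16 without vehicle replicate 3). Mertk, a receptor for the uptake of dying cells, rose by 0.54 (SE 0.09, adjusted p = 0.0269), and none passed as lower with all arrays. In 3 of the 14, Mertk, Lyve1 and Cd163, every digoxin array lay above every vehicle array. In 1, Fcgr1, every digoxin array lay below. Over all genes the shares were 4.4% and 3.76%. Without passing, Lyve1 and Cd163 each stood at 0.51 and Fcgr1 at -0.33 (adjusted p of 0.058, 0.133 and 0.0933 in limma). Fcgr1 passed without vehicle replicate 3 (adjusted p = 0.0343). The call of Mertk ended without digoxin replicate 1 or 5 or any of the vehicle replicates (highest adjusted p 0.073, without vehicle replicate 2). The mean over 11 of 11 neutrophil markers lay between -0.06 and 0.06 after digoxin and between 0.01 and 0.12 after vehicle. That over 6 of 6 monocyte markers lay between 0.0004 and 0.20 after digoxin and between -0.14 and 0.05 after vehicle. Of these 6, however, 4 had lower means and 2 higher, with a median log2 change of -0.07, and Ms4a6c had the largest change at 0.85 (adjusted p = 0.0862 in limma). Apart from Mertk and Eng no gene of the marker lists passed the test with all 8 arrays. For 10 fibroblast markers the mean lay between -0.11 and 0.21 after digoxin and between -0.0047 and 0.19 after vehicle, lowest on vehicle replicate 3. Of these 10, 7 had lower means and 3 higher, with a median log2 change of -0.07. Without vehicle replicate 3 the median was -0.12 and 9 had lower means. Tcf21 stood at -0.37, and without vehicle replicate 3 it passed as lower (-0.54, adjusted p = 0.0232 in limma). The mean over 6 atrial cardiomyocyte markers varied most, from -0.50 to 1.94 after digoxin and from 0.29 to 2.55 after vehicle. All 6 had lower means in digoxin hearts, the direction of most members, with a median log2 change of -1.12 (-1.52 without vehicle replicate 3), and none passed the test or separated the groups. Since values are centred, it cannot be said which markers were at background, and the part of cell composition in the results above was not tested.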

How the data were processed

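Total RNA in 8 samples of mouse heart was measured on Affymetrix Mouse Gene 2.0 ST arrays. Per the series design text, the authors used GIANT, a set of Galaxy tools, with the Robust Multi-Average method, and the submitters' processing notes name limma. Tool versions were not stated. The deposited values are log2 values centred per probe set on an unstated reference, which cancels in differences between arrays, and the log base is taken from that method. The vehicle label names both ZT5 and ZT9 for sacrifice, and ZT9 was used, as in the design text.

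Of 34351 probe sets, 23521 had 1 gene symbol in the platform annotation, and their mean per gene gave 22180 genes. Of the 33 members, 32 had 1 probe set and Csf2 had 2. The groups were compared in R 4.3.3 with limma 3.58.1 (lmFit, eBayes, two-sided, no covariate), Benjamini-Hochberg adjustment over all genes and a threshold of 0.05. The fit had 6 residual and 2.75 prior degrees of freedom. SE and 95% intervals come from that fit, or for a difference between 2 members from the spread of their difference over arrays. The residual SD is that of the arrays around their group means. The script was tested on simulated data.

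A gene is given on every array if it passed the test, was among the 6 largest changes without overlap of the groups, was Nlrp3, Tnf or Il6, or had the next largest change of its role. From other lists, genes past the test are named, or the 1 of smallest p. Further receptors, partners and cell markers were named after their values were seen, as were Ccl2, Ccl8 and Ccl12. The members and lists were chosen with earlier results of these data known. No filter on low values was possible, and the number of arrays limits the precision. Alternatives covered probe sets, normalization, variance, array weights, the replicate number as a block, the threshold and arrays left out. For called genes outside the member list they were added after seeing the data.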

Additional observations from a re-analysis of the deposited data

Results flagged for a closer look

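In 2 of the 33 genes a digoxin array lay far from the other 4, by Dixon's criterion at the 95% level, and chance flags about 1 in 20 groups. Ccl6 was at 0.460 on digoxin replicate 4, and the nearest digoxin array was at 0.0948. Ptgs2 was at 0.659 on digoxin replicate 1, and the nearest digoxin array was at 0. Groups of 3, such as the vehicle arrays, were not examined this way.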

How the results depend on the processing

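The count of 302 genes called was 614 with array weights, 493 at a threshold of 0.10, 500 with digoxin replicate 4 and vehicle replicate 3 both omitted, and 166 to 374 with 1 array left out, lowest without digoxin replicate 5. It was also low without digoxin replicate 2 (170) or 3 (174) or vehicle replicate 2 (169). Of the members, 3 were called lower, beside 92 of all 22180 genes. With quantile normalization 5 members were called lower, beside 94 of all genes, and with array weights 5, beside 320. With 1 array left out the count ran from 0 (without vehicle replicate 2, beside 29 of all genes) to 3. Csf1 did not pass with arrays centred on their medians or with robust variances. None was called higher, with 1 array left out neither, but 1, Il1r1, was without digoxin replicate 4 and vehicle replicate 3 together, beside 218 of all genes.

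Replicate numbers 1 to 3 occur in both groups but do not pair the samples (correlations of deviations -0.20, -0.02 and 0.02). With the replicate block, 12 genes and 0 members were called, and Ccl6 stood at -0.030, Ptgs2 at 0.048 and Tnfaip3 at -0.084, with the sign turned. Digoxin replicates with no vehicle replicate of the same number do not enter the comparison in that fit. It also has fewer degrees of freedom, so its counts cannot be set directly beside those of the other fits.

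Other signs turned near 0. With quantile normalization they were Il1r2 0.012, Csf2 0.0081, Tnfaip3 -0.031, Icam1 minus Vcam1 0.031 and Cxcl1 minus Cxcl12 0.047. With median centring Il1r2 was at 0.0031, and with array weights Il1r2 was at 0.0075, Csf2 at 0.027 and Tnfaip3 at -0.038. Without digoxin replicate 4 and vehicle replicate 3 they were Il1r2 0.012, Csf2 0.051, Ccl6 -0.0019, Cxcl2 0.0063 and Tnfaip3 -0.097. With 1 array left out the ranges were -0.043 to 0.057 for Il1rn, -0.011 to 0.0094 for Il1r2, -0.025 to 0.068 for Nlrp3, -0.071 to 0.034 for Csf2, -0.0058 to 0.11 for Ccl6, -0.18 to 0.062 for Ccl9, -0.027 to 0.037 for Cx3cl1, -0.20 to 0.031 for Ptgs2, -0.11 to 0.059 for Tnfaip3, -0.17 to 0.094 for Icam1 minus Vcam1 and -0.093 to 0.13 for Cxcl1 minus Cxcl12. The cause was not tested. With 1 array left out the exact permutation test of a pair cannot go below 0.0286, or 0.0476 without a vehicle array. Il1b minus Il1a was at that floor in all 8 fits (-0.42 to -0.39), with adjusted p values of 0.0571 to 0.0952 over the 8 pairs, so the adjusted test says nothing about stability. The median of the members stayed between -0.16 and -0.09.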
